A study of Macaca fascicularis with 6 samples.

Results

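The *HOX* genes were described here in single cells of cynomolgus monkey iPSC-derived cartilage before and after transplantation into the knee. All genes whose symbol is *HOXA*, *HOXB*, *HOXC* or *HOXD* followed by a number were taken as members, without antisense genes. This gave 29 of the 13950 genes in the matrix of 2 conditions and the same 29 of the 14020 genes in the matrix of 4 conditions. The members comprised 11 *HOXA*, 7 *HOXB*, 4 *HOXC* and 7 *HOXD* genes. By paralog number, 6 were anterior (paralogs 1 to 3), 14 were central (paralogs 4 to 8) and 9 were posterior (paralogs 9 to 13). The RefSeq table of the species lists 39 such genes, and the 10 that the matrices do not hold were not analysed here.

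cyiPSC are iPS cells of 1 cynomolgus monkey line that carry an EGFP reporter driven by the ubiquitous CAG promoter in the AAVS1 safe-harbor locus and are homozygous for the MHC. Pre-transplant cyiPS-Cart are cartilage organoids differentiated from these cells, and post-transplant cyiPS-Cart are the same kind of graft taken out 4 months after allogeneic transplantation into chondral defects in the knees of monkeys aged 3 to 4 years. cyAC is intact articular cartilage and cyFT is the fibrous tissue that filled defects left empty, both from wild-type monkeys, and the monkeys with empty defects received no graft. The label of the post-transplant library also names wild type, while GFP reads were present in all 320 post-transplant cells, in every cyiPSC, in every cell of the graft before transplantation and in 0 of the 640 cyAC and cyFT cells. GFP had a log2 maximum above 8, the first cut of the authors' correction, which sets low counts of some genes to 0. GFP counts as low as 1 read in pre-transplant cells and 4 reads in cyiPSC were left. Whether the correction changed any GFP count is not known. Each condition was 1 sample, the grafts came from that 1 line, and cells from several sites were pooled in a library. No difference between conditions could therefore be tested across animals, and every interval given is a 95% interval that covers counting error only. Intervals of CPM ratios treat each read as independent, although the reads of a gene gather in few cells. They are therefore too narrow even for the sampling of cells.

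*HOX* genes encode homeodomain transcription factors that give cells along the body axis their positional identity. Within each cluster the genes lie in the order in which they are used, with low paralog numbers acting toward the head and high numbers toward the tail. The posterior *HOXA* and *HOXD* genes also pattern the limb from its root to the digits, and connective tissue cells of the adult often keep a *HOX* pattern of the site where they arose.

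The matrix of 2 conditions held 2500 cyiPSC and 3527 pre-transplant cells of 1 library, and the matrix of 4 conditions held 320 cells of each graft stage, of cyAC and of cyFT, from 3 libraries, a number to which the authors had reduced each condition. Pre- and post-transplant cells, and post-transplant cells and cyAC, came from different libraries, so that library and condition cannot be told apart in these pairs. cyiPSC and pre-transplant cells shared a library, as did cyAC and cyFT. Of the 320 pre-transplant cells in the second matrix, 300 were also in the first, and between 0 and 4 cell numbers were shared by any pair of libraries. The counts were taken as reads, since no step that counts molecular identifiers is described. Median reads per cell were 143075 in cyiPSC, 59249 in the full pre-transplant set and 27499.5 to 80335.5 in the matrix of 4 conditions, and shares of cells were therefore also computed after thinning cells to 30967 reads in the first matrix or 12191 in the second. Shallower cells were left out, 60 of cyiPSC and 353 of the full pre-transplant set in the first, and 1 before transplantation, 0 after it, 12 of cyAC and 32 of cyFT in the second. Chondrocyte markers summed to 66.3 CPM (reads per 1000000 reads of the condition) in cyiPSC and to 30415 to 69138 CPM in the other conditions. Pluripotency markers summed to 359 CPM in cyiPSC and to 7.71 CPM or less elsewhere, and *NANOG*, *LIN28A* and *SOX2* were at 0 reads in post-transplant cells, cyAC and cyFT.

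Most *HOX* genes were found in few cells. Only *HOXA5*, *HOXA9*, *HOXA10* and *HOXB2* reached a share of 10% with reads in any condition. Another 4 (*HOXA7*, *HOXA11*, *HOXC9* and *HOXD8*) reached 5% in some condition, and the remaining 21 stayed under 5% in every one. Members with any read numbered 24 of 29 in cyiPSC, 27 in the full pre-transplant set and 21 and 22 in the 320 cells before and after transplantation, 18 in cyAC and 17 in cyFT. *HOXB9* was at 0 in all 4 conditions of the second matrix. Genes under 10% are named below where a count turns on them, and were chosen after their values were seen.

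**Figure D1:**
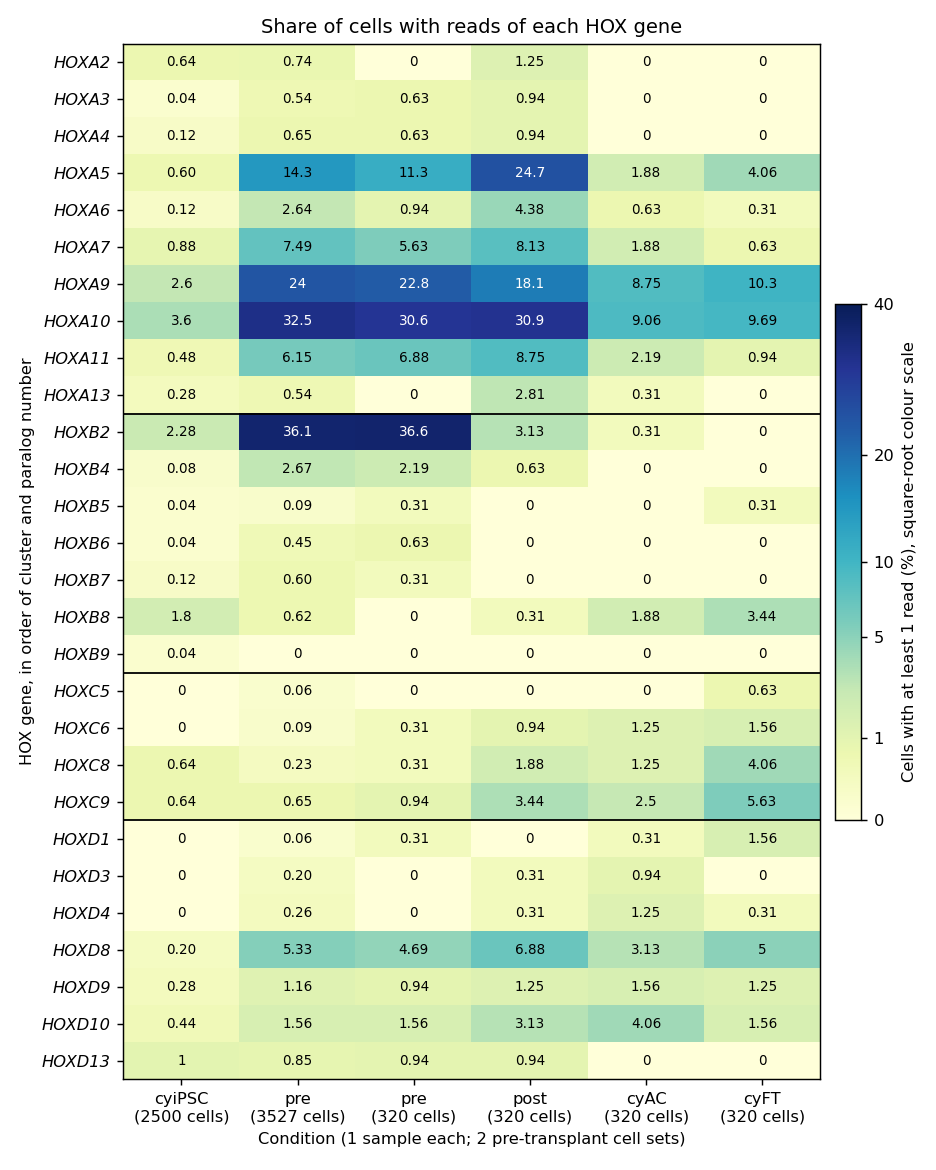
Share of cells with at least 1 read (percent, printed in each cell) of all but 1 of the *HOX* genes in rows, by condition in columns, with pre-transplant cyiPS-Cart shown for both matrices. The dark cells are *HOXB2*, *HOXA10*, *HOXA9* and *HOXA5*, and *HOXB2* is at 36.6% of the 320 cells before transplantation and 3.13% of the 320 cells after it.

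Differentiation of cyiPSC into cartilage went with *HOX* reads in most cells. *HOX* genes together made up 2.48 CPM in cyiPSC and 106 CPM in pre-transplant cyiPS-Cart. At least 1 *HOX* read was found in 15.1% of cyiPSC (13.7 to 16.5%) and in 73.1% of pre-transplant cells (71.7 to 74.6%), and at equal depth in 4.96% and 67.9%. Cells with reads of 2 or more *HOX* genes made up 1.60% and 40.4%. No *HOX* gene reached 5% of cyiPSC, whereas 7 did so in pre-transplant cells, and 5 at equal depth.

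*HOXB2*, an anterior gene that acts in the hindbrain and its neural crest, had reads in 36.1% of pre-transplant cells (34.6 to 37.8%) and 2.28% of cyiPSC. *HOXA10*, a posterior gene that patterns the proximal limb and the lumbar vertebrae, had reads in 32.5% of pre-transplant cells and 3.60% of cyiPSC. *HOXA9*, its posterior neighbour, had reads in 24.0% and 2.60%. Pre-transplant cells thus held an anterior *HOXB* gene and posterior *HOXA* genes together. *HOXA5*, a central gene known for its role at the neck and thorax level and in the lung, had reads in 14.3% of pre-transplant cells and 0.600% of cyiPSC. *HOXA7*, *HOXA11* and *HOXD8* lay between 5.33% and 7.49% of pre-transplant cells and at 0.880% or less of cyiPSC.

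A comparison of summed CPM counted a gene as higher or lower where CPM + 1 differed by at least 2-fold, among genes with at least 5 CPM and reads in at least 5% of cells in either condition. Between pre-transplant cyiPS-Cart and cyiPSC, 5 *HOX* genes passed this filter on low values, which favours genes that are high in one of the conditions, and 5 were higher and 0 lower. Of the 9583 genes that passed it, 16.3% were higher and 37.8% lower, and scaling by TMM turned these 1559 higher and 3619 lower genes into 2457 and 1858 without changing the *HOX* calls. *HOXA10* was 0.469 CPM in cyiPSC and 37.6 CPM in pre-transplant cells, an 80.0-fold difference (69.4 to 92.7). *HOXB2* was 70.1-fold higher (59.0 to 84.1), *HOXA9* 52.2-fold (44.1 to 62.0), *HOXA5* 86.0-fold (64.3 to 118) and *HOXA7* 37.0-fold (29.1 to 47.9). The 5 genes span anterior, central and posterior classes. The folds are ratios of measured reads over a very low cyiPSC level, and do not give the size of a change in expression.

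The low *HOX* shares in cyiPSC were set beside those of genes of pluripotent cells in the cartilage cells of the same library. In pre-transplant cells, *NANOG* and *LIN28A* had reads in 1.98% and 2.15% of cells, and in 1.23% each at equal depth. No *HOX* gene exceeded 1.07% of cyiPSC at equal depth, and shares this low are not read as expression. The source of these reads was not tested. The 7 genes present in at least 5% of pre-transplant cells stood in cyiPSC at 0.979 to 2.70% of their pre-transplant CPM. The ratio was higher for *HOXA2*, *HOXA4*, *HOXA13*, *HOXB5*, *HOXB7*, *HOXB8*, *HOXC8*, *HOXC9*, *HOXD9*, *HOXD10* and *HOXD13*, at 7.66 to 99.2%. *HOXB8* had 53 reads in cyiPSC and 34 in pre-transplant cells (90.2% of the pre-transplant CPM), *HOXC8* had 24 and 14 (99.2%), and *HOXD13*, a gene of the digits, had 98 and 113 (50.2%). A cluster of 66 shallow cyiPSC, with a median of 19557 reads and not named as a cell type, gave 106 of the 1029 *HOX* reads of cyiPSC, and 14 of its cells were deep enough to be thinned. It was led by *SAA2*, *CXCL6* and *FGF7* and had 7220 *COL1A1* CPM, beside 0 to 80.9 CPM in the other cyiPSC clusters. What these cells are was not tested.

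After transplantation the share of cells with at least 1 *HOX* read was much as before, and the makeup of the reads was not. Where a gene was found only from 10 reads, the share was higher after transplantation than before, as given in the closing section. At least 1 *HOX* read was found in 71.9% of the 320 pre-transplant cells (66.6 to 76.7%) and 72.2% of the 320 post-transplant cells (66.9 to 77%), and at equal depth in 48.0% and 51.6%. In cyAC the share was 31.9% (26.8 to 37.3%) and in cyFT 38.8% (33.4 to 44.3%), with 23.4% and 29.5% at equal depth. Summed *HOX* reads amounted to 91.9 CPM in pre-transplant cells, 146 CPM in post-transplant cells, 55.0 CPM in cyAC and 67.6 CPM in cyFT. Both graft conditions thus lay above cyAC and cyFT on each measure. In summed reads, fewer cells with a gene and fewer reads per cell cannot be told apart, so both the share and the CPM are given below.

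**Figure D2:**
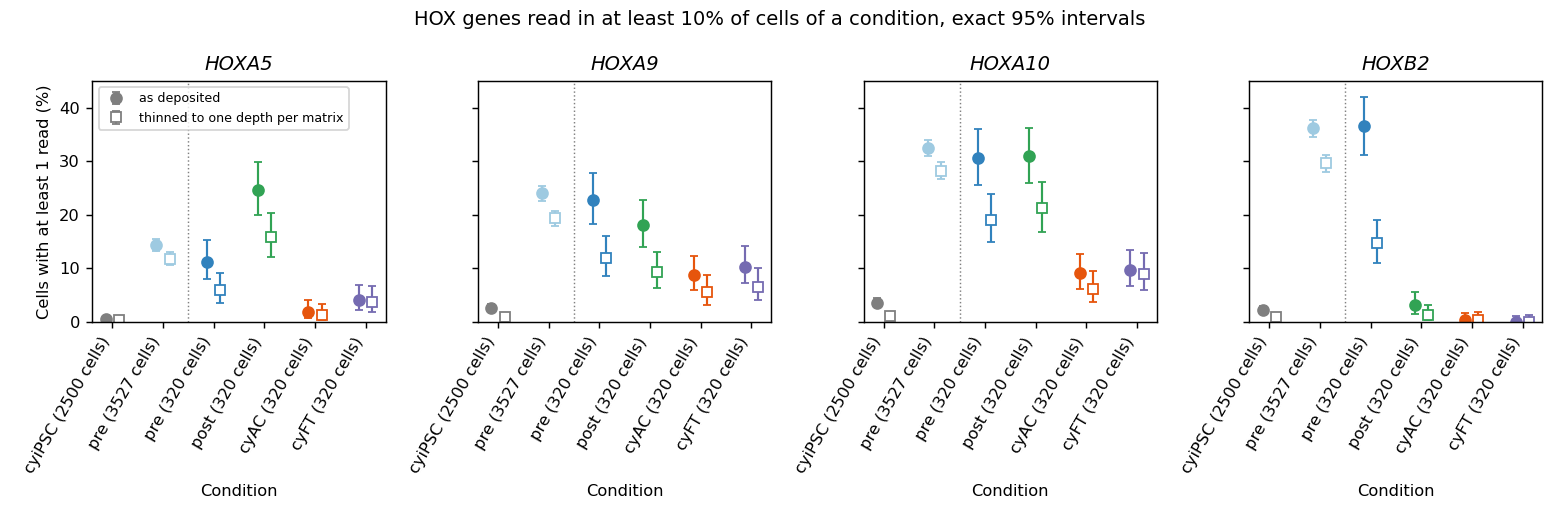
Share of cells with reads (percent, y axis) of *HOXA5*, *HOXA9*, *HOXA10* and *HOXB2* in each condition, with exact 95% binomial intervals that cover counting error, as deposited and after thinning to one depth within a matrix. *HOXA10* is at 30.6% before and 30.9% after transplantation, while *HOXB2* goes from 36.6% to 3.13%.

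*HOXB2* was the gene that set the graft before transplantation apart from the other 3 conditions. It had reads in 36.6% of cells before transplantation (31.3 to 42.1%), 3.13% of cells after it (1.51 to 5.67%) and 1 of 320 cyAC cells. In cyFT it had reads in 0 of 320 cells, which allows a share of up to 0.938%. At equal depth the shares were 14.7%, 1.25%, 0.325% and 0%. Its level was 20.1 CPM before and 2.65 CPM after transplantation, 7.58-fold lower (5.95 to 9.76). A single post-transplant cell held 46 of the 79 *HOXB2* reads, and the level without it was 1.11 CPM. The other *HOXB* genes were rare before transplantation as well. *HOXB4* had reads in 7 pre-transplant cells and 2 post-transplant cells, *HOXB5*, *HOXB6* and *HOXB7* in 1 or 2 pre-transplant cells and 0 post-transplant cells. Cells with any *HOXB* read made up 38.4% of pre-transplant cells (33.1 to 44.0%) and 4.06% of post-transplant cells, and 2.19% of cyAC and 3.75% of cyFT. In cyFT 11 of these cells carried *HOXB8*, mostly at a single read, as 14 reads in all.

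*HOXA5* moved the other way. Its share of cells was 11.3% before (8.0 to 15.2%) and 24.7% after transplantation (20.1 to 29.8%), and 5.96% and 15.9% at equal depth. Its level was 8.31 CPM before and 34.9 CPM after, 4.20-fold higher (3.58 to 4.96). cyAC and cyFT held little of it, with reads in 1.88% of cyAC cells and 4.06% of cyFT cells. A pair of central neighbours in the cluster were also higher in CPM. *HOXA7* was 4.74 and 14.7 CPM, 3.09-fold higher (2.49 to 3.88), with reads in 5.63% and 8.13% of cells. *HOXA6* was 0.657 and 4.56 CPM, with reads in 3 and 14 cells, and did not pass the filter on low values. The gene models of *HOXA3* to *HOXA6* overlap in RefSeq's annotation of another assembly, as do those of *HOXB4*, *HOXB8*, *HOXB9*, *HOXC5*, *HOXD3*, *HOXD4* and *HOXD10* with a neighbouring *HOX* gene, so that the split of reads between such genes is uncertain.

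*HOXA9* and *HOXA10* were found both before and after transplantation. *HOXA10* had reads in 30.6% of pre-transplant cells (98 cells) and 30.9% of post-transplant cells (99 cells), and its level was 33.0 and 46.7 CPM, a ratio of 1.42 (1.29 to 1.55). *HOXA9* had reads in 22.8% and 18.1% of cells and stood at 15.1 and 17.6 CPM, a ratio of 1.17 (1.02 to 1.35). Neither passed 2-fold. *HOXA11*, which patterns the middle segment of the limb, had reads in 6.88% and 8.75% of cells, or 3.13% and 6.25% at equal depth, and was 2.36-fold higher in CPM (1.83 to 3.06), a call that was lost with a pseudocount of 5 CPM and without cells marked as doublets. *HOXA13*, the digit gene of the cluster, had 0 reads in the 320 pre-transplant cells, 68 reads in the full pre-transplant set and 53 reads in 9 post-transplant cells.

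Among the 6 *HOX* genes that passed the filter between post- and pre-transplant cells, 3 were higher (*HOXA5*, *HOXA7* and *HOXA11*) and 1 was lower (*HOXB2*). *HOXA7* and *HOXA11* reached 5 CPM only after transplantation and *HOXB2* only before it, so that these calls lean on the filter. Over the 8684 genes that passed it, 8.99% were higher and 18.3% lower, with a median log2 ratio of -0.23. With TMM scaling the median was 0.00, the share of higher genes among all calls went from 33.0% to 48.8%, and the *HOX* calls stayed as they were. The log2 ratios of CPM + 1 were 1.95 for *HOXA5*, 1.45 for *HOXA7*, 1.05 for *HOXA11*, 0.49 for *HOXA10*, 0.21 for *HOXA9* and -2.53 for *HOXB2*. Over all 29 members the median was 0.21, and over all genes of the matrix -0.07. The full pre-transplant set in place of the 320 cells gave the same 4 calls. Other measures moved between these stages as well. Fibroblast markers summed to 22798 CPM before and 70673 CPM after transplantation, with *COL1A2* and *COL3A1* higher. Neural markers went from 29.7 to 1.27 CPM, with *TUBB3* and *MAP2* lower and *PAX6*, *OTX2* and *ELAVL3* at 0 after transplantation, and cycling markers from 78.4 to 12.3 CPM, with *MKI67* lower. Mural markers went from 107 to 35.1 CPM with *ACTA2* lower, skeletal muscle markers from 30 to 5.56 CPM with *DES* lower, and the median mitochondrial share of reads from 5.24 to 1.68%. Their part in the *HOX* values was not tested.

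**Figure D3:**
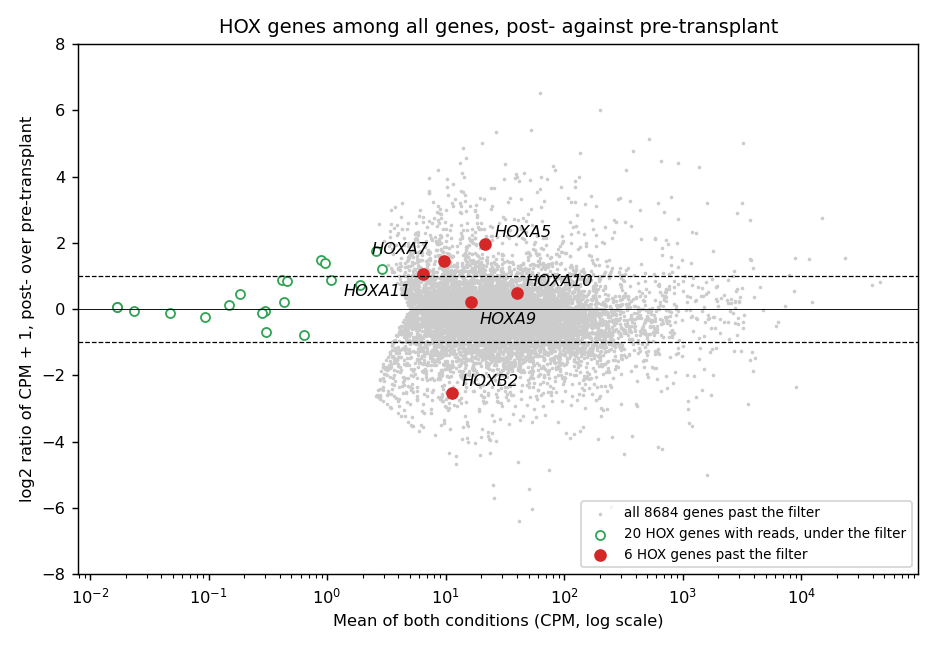
Log2 ratio of CPM + 1 in post- over pre-transplant cyiPS-Cart (y axis) against the mean CPM of both (x axis, log scale), with all 8684 genes past the filter in grey, the 6 *HOX* genes past it as filled red points, the other *HOX* genes with reads as open points and dashed lines at 2-fold. *HOXA5* lies at 1.95 and *HOXB2* at -2.53, with *HOXA9* and *HOXA10* between the 2-fold lines.

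Post-transplant cells had more reads per cell and fewer genes per cell than pre-transplant cells, with medians of 2594.5 and 3765 genes. Reads per cell with a read had a median of 5.94 before and 12.3 after transplantation over all genes past the filter, a ratio of 1.85, while the share of cells with a read had a median ratio of 0.679. Reads per *HOXA10*-positive cell went from 7.16 to 14.1 (1.97-fold) and per *HOXA5*-positive cell from 4.92 to 13.2 (2.69-fold). The ratio of shares was 1.01 for *HOXA10*, 0.795 for *HOXA9*, 2.19 for *HOXA5* and 0.0855 for *HOXB2*. *HOXA5* and *HOXB2* thus lay on either side of the all-gene median by share of cells, and *HOXA9* lay near it.

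The *HOXC* and *HOXD* genes were sparse in every condition. Any *HOXC* read was found in 1.56% of pre-transplant cells (0.509 to 3.61%), 5.63% of post-transplant cells, 4.69% of cyAC and 10.6% of cyFT, and in 0.313%, 2.81%, 3.25% and 6.94% at equal depth. *HOXC9* had reads in 3, 11, 8 and 18 cells in that order, and *HOXC8*, a gene of the thoracic level, in 1, 6, 4 and 13 cells. The overlapping gene models of *HOXC6*, *HOXC8* and *HOXC9* leave the split among them uncertain. *HOXD* reads were found in 8.13% of pre-transplant cells, 11.9% of post-transplant cells, 10.0% of cyAC and 9.69% of cyFT, and at equal depth in 2.82%, 4.69%, 6.82% and 5.90%. The order of post-transplant cells and cyAC thus turned at equal depth for both *HOXC* and *HOXD*, with intervals that overlap at either depth. *HOXD8* had reads in 4.69%, 6.88%, 3.13% and 5.00% of cells in the same order. *HOXD10* had reads in 5, 10, 13 and 5 cells. *HOXD13* had reads in 3 cells each before and after transplantation and in 0 of the 640 cyAC and cyFT cells.

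**Figure D4:**
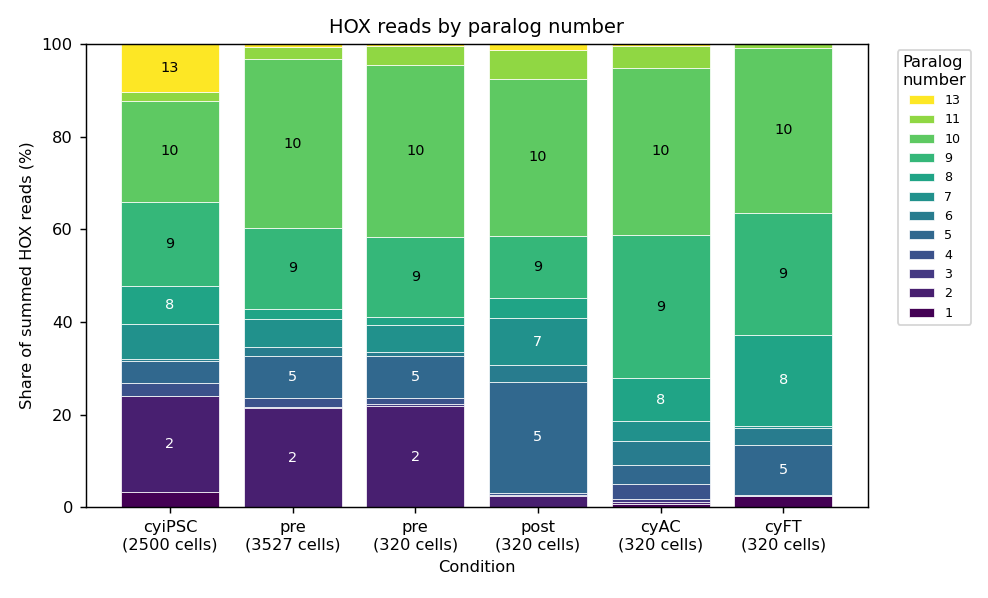
Percent of all *HOX* reads (y axis, from 0 to 100) taken by each paralog number, as stacked bars for each condition (x axis), with pre-transplant cyiPS-Cart shown for both matrices. Paralog 2 takes 21.8% before and 2.38% after transplantation, paralog 5 takes 9.15% and 23.9%, and paralog 10 takes 33.8 to 37.1% in the matrix of 4 conditions.

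The makeup of the *HOX* reads showed the same pattern. Anterior genes gave 22.2% of *HOX* reads before transplantation, 2.59% after, 1.69% in cyAC and 2.40% in cyFT. Central genes gave 18.8%, 42.5%, 26.2% and 34.7%, with paralog 5 alone at 9.15%, 23.9%, 4.15% and 10.7%. Posterior genes gave the largest part in every condition, at 59.0%, 54.9%, 72.2% and 62.9%. Paralog 10 held nearly the same part throughout, at 37.1%, 33.8%, 36.2% and 35.6%. By cluster, *HOXA* gave 71.8% and 89.4% of reads before and after transplantation and 67.7% and 63.2% in cyAC and cyFT, and *HOXB* gave 24.0%, 1.97%, 1.38% and 2.94%. *HOXC* and *HOXD* together were under 10% of *HOX* reads in the grafts, at 0.664% and 3.53% before and 3.00% and 5.62% after transplantation. In cyAC they gave 10.9% and 20% and in cyFT 22.3% and 11.6%. Reads of a gene cluster in few cells, so that these percentages rest on 230, 231, 102 and 124 cells with a *HOX* read.

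In single cells, the highest paralog number found had a median of 9 in pre-transplant cells, cyAC and cyFT and 10 in post-transplant cells. In the full pre-transplant set it was 10 as deposited and 9 at equal depth. Cells with a posterior read made up 50.0% of pre-transplant cells (44.4 to 55.6%), 54.1% of post-transplant cells, 23.4% of cyAC and 24.7% of cyFT. Cells with an anterior read made up 37.2%, 5.63%, 1.56% and 1.56%, and cells with a central read 23.1%, 39.1%, 12.5% and 18.8%. How often genes were found in the same cell was counted in the full pre-transplant set. At equal depth, *HOXA10* had reads in 37.5% of the cells with *HOXA9* (33.6 to 41.4%) and 26% of those without it (24.3 to 27.7%), whereas *HOXB2* had reads in 30.3% and 29.5%. *HOXA10* was found in 38.9% of cells with *HOXA5* and in 26.8% of those without. *HOXB2* was found in 33.3% of cells with *HOXA10* (30.2 to 36.5%) and in 28.2% of those without (26.3 to 30.1%). After transplantation, *HOXA10* had reads in 13.3% of the 30 cells with *HOXA9* (3.76 to 30.7%) and 22.1% of those without it (17.4 to 27.3%) at equal depth. It had reads in 29.4% of the 51 cells with *HOXA5* (17.5 to 43.8%) and 19.7% of those without it (15.1 to 25%). Both pairs of intervals overlap. Cells compared here share 1 library, and the values are a description.

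Post-transplant cyiPS-Cart and cyAC are both cartilage in the knee, and 4 of the 5 *HOX* genes that passed the filter were higher in the graft, with 0 lower. *HOXA5*, *HOXA7* and *HOXA11* were at 2.28, 2.37 and 2.54 CPM in cyAC and passed only through the graft. The count of higher and lower genes thus leans on the filter. Over the 8544 genes that passed it, 10.7% were higher and 15.5% lower. *HOXA5* was 15.3-fold higher (10.5 to 23.3), *HOXA7* 6.20-fold (4.23 to 9.43), *HOXA11* 3.58-fold (2.45 to 5.41) and *HOXA10* 2.94-fold (2.52 to 3.44). *HOXA9* was at 17.6 CPM in the graft and 12.8 CPM in cyAC, a ratio of 1.38 (1.15 to 1.66), with reads in 18.1% and 8.75% of cells. At equal depth its shares were 9.38% (6.41 to 13.1%) and 5.52% (3.25 to 8.69%), with intervals that overlap. *HOXA9* was thus the nearest of the 5 to its level in intact cartilage, and *HOXA11* lost its call with a pseudocount of 5 CPM. Fibroblast markers moved with this comparison and summed to 70673 CPM in post-transplant cells and 8637 CPM in cyAC, with all 6 detected in both, *COL1A1*, *COL1A2* and *COL3A1* higher and *THY1* lower. In cells with *COL2A1* and without *COL1A1* reads, *HOXA10* was found in 27.5% of the graft and 10.1% of cyAC. Osteoblast markers summed to 6.13 CPM in the graft and 58.6 CPM in cyAC, with *PHEX* lower in the graft and *SP7* at 0 in both, and immune markers to 5.36 and 27.1 CPM, with *CD68* lower. The part of other cells in this comparison was not tested. Some rarer genes had a lower CPM in the graft. *HOXD10* was at 2.61 CPM and 3.97 CPM (ratio 0.657, 0.452 to 0.965), and *HOXC9* at 1.67 CPM and 2.96 CPM (ratio 0.566, 0.360 to 0.898), though with reads in 11 and 8 cells and 40% of its cyAC reads in 1 cell. *HOXD4*, with reads in 1 graft cell and 4 cyAC cells, was at 0.368 CPM and 1.86 CPM.

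cyFT and cyAC came from 1 library and had similar depth, and their main posterior genes were close. Only *HOXA9* and *HOXA10* passed the filter, and 0 were higher and 0 lower, against 11.2% higher and 4.16% lower over the 8567 genes that passed it. *HOXA9* was at 12 CPM in cyFT and 12.8 CPM in cyAC, a ratio of 0.939 (0.738 to 1.19). *HOXA10* was at 22.9 and 15.9 CPM, a ratio of 1.44 (1.19 to 1.75), and the mean of per-cell CPM put it past 2-fold. Among the rarer genes, *HOXC8* was at 8.12 CPM in cyFT and 1.35 CPM in cyAC (ratio 6.0, 3.50 to 10.9), with reads in 13 and 4 cells. *HOXD10* was at 1.17 and 3.97 CPM (ratio 0.295, 0.146 to 0.554), and *HOXA11* at 0.541 and 2.54 CPM with reads in 3 and 7 cells. The fibrous tissue held more *HOXC* reads, and the cartilage more *HOXD10* reads. Immune markers summed to 557 CPM in cyFT and 27.1 CPM in cyAC, with 5 of the 6 detected in cyFT (*CD3E* at 0), and 16 cyFT cells and 1 cyAC cell held at least 3 of them. Osteoblast markers summed to 1095 CPM in cyFT and 58.6 CPM in cyAC, and fibroblast markers to 47096 CPM and 8637 CPM. The part of these other cells in the *HOX* differences was not tested.

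*HOXA10* was more widely found in cells with *COL1A1*, the type I collagen gene of fibrous tissue, than in cells with *COL2A1*, the type II collagen gene of cartilage, and without *COL1A1*. Low counts of both collagen genes had been set to 0 by the authors, and the lowest *COL1A1* count left above 0 was 277 and 497 reads before and after transplantation, 76 in cyAC and 81 in cyFT, so that cells without *COL1A1* reads can be cells with fewer. In pre-transplant cells of the full set the shares were 43.5% of 928 cells (40.3 to 46.8%) and 28.5% of 2588 cells (26.8 to 30.3%). In post-transplant cells they were 48.1% of 54 cells (34.3 to 62.2%) and 27.5% of 265 cells (22.3 to 33.3%). In cyFT they were 13.8% of 203 cells (9.37 to 19.3%) and 2.38% of 84 cells (0.290 to 8.34%). The order held at equal depth in these 3 conditions, at 37.2% and 24.8%, 35.2% and 18.5%, and 13.7% and 1.19%. In cyAC, only 19 cells had *COL1A1* reads and 0 of them had *HOXA10* reads. *HOXB2* did not show this order, with 32.8% of *COL1A1* cells and 37.5% of *COL2A1* cells before transplantation. *HOXA5* was likewise not higher in *COL1A1* cells of the grafts, at 13% and 14.8% before and 14.8% and 26.4% after transplantation. In cyFT, all *HOX* genes together made up 107 CPM of *COL1A1* cells and 28.6 CPM of *COL2A1* cells, at median depths of 23049 and 47802.5 reads. The shares with a *HOX* read overlapped, at 43.3% (36.4 to 50.5%) and 36.9% (26.6 to 48.1%), and were 36% (28.9 to 43.6%) and 21.4% (13.2 to 31.7%) at equal depth.

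**Figure D5:**
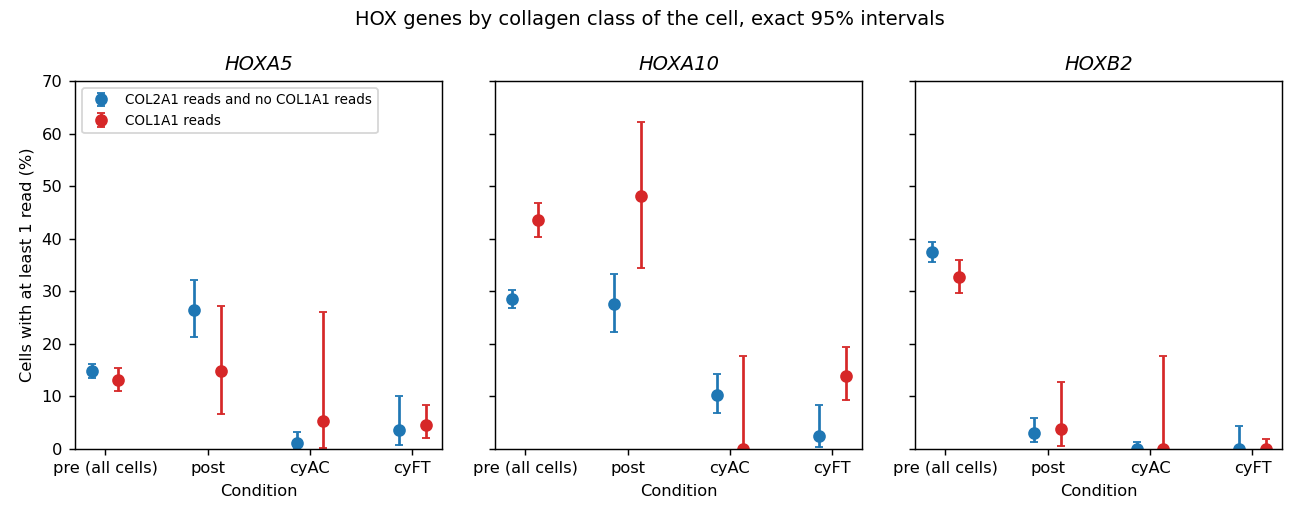
Share of cells with reads (percent, y axis) of *HOXA5*, *HOXA10* and *HOXB2* in cells with *COL2A1* and without *COL1A1* reads (blue) and in cells with *COL1A1* reads (red), by condition, with exact 95% binomial intervals. *HOXA10* is higher in *COL1A1* cells of the grafts and of cyFT, and *HOXB2* is at 37.5% and 32.8% in the full pre-transplant set.

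Clusters built without the *HOX* genes held *HOX* reads in every cluster of pre-transplant cells, at unequal levels. Pre-transplant cells fell into 3 clusters. In the cluster led by *FOS*, *TENT5A* and *PAPPA2*, which also had the cartilage matrix genes *CHAD* and *MATN3* among its top 10, 73.8% of 1337 cells had a *HOX* read. In the cluster led by *ECM1* and *COL1A1* the share was 79.3% of 948 cells, and in the one led by *RGS4* and *BMP6* 67.7% of 1242 cells. At equal depth the shares were 74.0%, 73.8% and 58.1% in that order, and the levels were 139, 120 and 68.0 *HOX* CPM. *HOXB2* was found in 39.6%, 35.1% and 33.2% of these, and *HOXA10* in 32.7%, 44.6% and 22.9%. The cyiPSC clusters held *HOX* reads in 13.2 to 18.2% of cells. The shallow cluster of 66 cyiPSC was at 59.1 *HOX* CPM and the others at 1.23 to 5.84 CPM, and *HOX* reads were in 57.1% of its 14 thinned cells and 3.26 to 8.82% of thinned cells of the others. In the matrix of 4 conditions, the cluster that held most cells of 3 conditions had *HOX* reads, as deposited and at unequal depth, in 70.2% of 252 pre-transplant cells, 73.0% of 248 post-transplant cells, 31.3% of 284 cyAC cells and 52.8% of 36 cyFT cells. Within it, *HOXB2* was found in 38.5% of pre-transplant cells (32.5 to 44.8%) and 2.82% of post-transplant cells (1.14 to 5.73%), and in 0 of the cyAC and cyFT cells. This cluster held most cells of both graft conditions, so that the *HOXB2* difference within it largely repeats the one across all cells. A cluster of 69 cyFT cells without *COL1A1* reads had 25.4 *HOX* CPM, below the 107 CPM of the 193 cyFT cells in the *COL1A1*-rich cluster. Their shares of cells with a *HOX* read were near each other, at 36.2% and 38.9%, at median depths of 48657 and 21057 reads, and were 18.8% and 32.7% at equal depth.

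Genes that act with the *HOX* proteins or upstream of them were followed in fixed lists. TALE homeodomain proteins bind DNA together with *HOX* proteins. Of the 9 listed TALE genes, 3 were higher (*MEIS1*, *MEIS2* and *PKNOX2*) and 2 lower (*PBX2* among them) in pre-transplant cells than in cyiPSC, with 8 past the filter and a median log2 ratio of -0.37 beside -0.39 over all genes. These counts stand beside 16.3% higher and 37.8% lower over all genes tested, and were the same with TMM scaling, beside 25.8% and 19.5%. After transplantation 8 passed the filter, 0 were higher and 2 lower (*PKNOX1* and *PKNOX2*), beside 8.99% and 18.3% of all genes tested, and the median was -0.38 beside -0.07. With TMM scaling *PKNOX2* alone was lower. *MEIS1* had reads in 17.8% of the full pre-transplant set and 2.96% of cyiPSC. In the matrix of 4 conditions it had reads in 19.1% of pre-transplant cells, 9.69% of post-transplant cells, 0.625% of cyAC and 1.25% of cyFT, and at equal depth in 11.3%, 5.94%, 0% and 0.347%. *PKNOX2* was at 36.4 CPM before and 9.75 CPM after transplantation, near its 10.3 CPM in cyAC. *PBX3* was higher in post-transplant cells (63.7 CPM) and in cyFT (55.7 CPM) than in cyAC (18.4 CPM).

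The list of upstream genes, which covers *CDX* factors and the retinoic acid pathway that open and time the *HOX* clusters, had 9 of its 13 genes in the matrix of cyiPSC. There, *CYP26A1*, which breaks down retinoic acid, was at 263 CPM in cyiPSC and 2.75 CPM in pre-transplant cells, and *CDX4* at 8.67 and 0.0874 CPM. *RARG*, a retinoic acid receptor of cartilage, was higher in pre-transplant cells than in cyiPSC, and higher again after transplantation, at 111 and 279 CPM, with 230 CPM in cyAC. *RARA* was lower in post-transplant cells (18.6 CPM) and in cyFT (34.3 CPM) than in cyAC (73.9 CPM). Of 13 listed chromatin regulators of the *HOX* clusters, 10 were in the matrix and 9 passed the filter. Beside 16.3% higher and 37.8% lower over all genes tested, 1 was higher (*BMI1*) and 5 lower (*EZH2*, *EED*, *PCGF2*, *RNF2* and *KDM6A*) in pre-transplant cells than in cyiPSC. With TMM scaling 1 was higher (*BMI1*) and 2 lower (*EZH2* and *KDM6A*), beside 25.8% and 19.5%. *EZH2*, the enzyme of Polycomb repressive complex 2, was at 164 CPM in cyiPSC, 11.9 CPM in the full pre-transplant set, 4.42 CPM after transplantation and 17.1 CPM in cyAC. After transplantation 1 of these regulators was higher (*PCGF2*) and 2 lower (*EZH2* and *SUZ12*) than before, beside 8.99% higher and 18.3% lower over all genes tested and with a list median of 0.18 beside -0.07. With TMM scaling *SUZ12* was no longer lower and *EZH1* was also higher. Cycling markers differed in the same direction as *EZH2* between cyiPSC and pre-transplant cells, with 4 of 4 lower.

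Of the 8 genes in the matrix that mark the type and axis of a limb, 4 passed the filter between post-transplant cells and cyAC, and 2 were higher (*HAND2* and *PRRX1*) and 0 lower, beside 10.7% higher and 15.5% lower over all genes tested and with a median log2 ratio of 0.12 beside 0. *TBX4*, which acts in the hindlimb, had reads in 23.1% of pre-transplant cells, 21.9% of post-transplant cells, 19.7% of cyAC and 17.8% of cyFT, and in 55.3% of cyiPSC. It was at 7.0 CPM before and 17.0 CPM after transplantation, next to 18.6 CPM in cyAC. *TBX5*, which acts in the forelimb, had 0 reads in the 320 pre- and the 320 post-transplant cells and was found in 2.81% of cyAC cells and 2.19% of cyFT cells. *TBX15* was likewise at 0 in both sets of 320 graft cells and in 4.38% and 5.31% of cyAC and cyFT cells. In the full pre-transplant set, 5 of 3527 cells had *TBX5* reads and 2 had *TBX15* reads. *HAND2*, which acts on the posterior side of the limb bud, had reads in 3 pre-transplant cells, 21 post-transplant cells, 0 cells of cyAC and 2 cells of cyFT. Between post- and pre-transplant cells, 4 of the limb genes passed the filter, and 3 were higher and 0 lower (*TBX4*, *HAND2* and *PRRX1*), beside 8.99% higher and 18.3% lower over all genes tested and with a median log2 ratio of 0.77 beside -0.07. In cyFT against cyAC, 5 passed it, and 3 were higher and 0 lower (*SHOX2*, *TBX3* and *PRRX1*), beside 11.2% higher and 4.16% lower over all genes tested and with a median of 1.05 beside 0.05. These calls of limb genes were the same with TMM scaling.

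Axial and cranial genes summed to 10.9 CPM before and 18.5 CPM after transplantation, 3.72 CPM in cyAC and 9.38 CPM in cyFT. Reads of any of them were in 28.8%, 27.8%, 7.19% and 11.6% of cells, as deposited and at unequal depth. *OTX2*, a head gene that pluripotent cells also express, was at 161 CPM in cyiPSC and 2.84 CPM in pre-transplant cells, and at 0 reads in the other 3 conditions. *PAX1* and *PAX9*, which pattern the sclerotome, were found in 20 and 6 of the 320 pre-transplant cells and in 1 and 21 of the post-transplant cells. In cyAC they were found in 1 and 0 cells. Of the 10 listed genes, 1 passed the filter between post- and pre-transplant cells, and it (*TWIST1*) was not past 2-fold, but was so with TMM scaling. It was higher in post-transplant cells than in cyAC, at 5.69 and 0.930 CPM.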

How the data were processed

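Cells were profiled by TAS-Seq on the BD Rhapsody system. The authors deposited 2 matrices of counts, whole reads per gene and cell, and the paired hashtag libraries were not used here. The submitters' processing notes name cutadapt 3.4, Bowtie2 2.4.2, R 3.6.3 and the build GRCh38, without their roles, while the study's methods describe cynomolgus transcripts of Ensembl. No coordinates are given. Strand use in counting the deposited matrices is not given, while the study's methods give it for a separate count used for RNA velocity. The authors had taken genes with a log2 maximum above 8 into a correction for background. In those that met further conditions, counts far below the maximum were set to 0. No *HOX* gene reached this level, with 155 reads as the highest count in a cell. *COL1A1*, *COL2A1* and GFP did, and GFP kept counts as low as 1 read. Cells were taken to conditions by the prefix of their names, and 0 columns of other samples were present.

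Reads were summed per condition with Python 3.11.15 and scaled to CPM, with a pseudocount of 1 CPM in log2 ratios. Intervals were exact: Clopper-Pearson for shares, Poisson for reads and conditional binomial for ratios, computed with scipy 1.17.1. The upper limit of a share of 0 was set at 3 counts. Cells were clustered with Seurat 5.3.0 in R 4.3.3 without the *HOX* genes, TMM factors came from edgeR 4.0.16, and doublets were marked by scrublet in scanpy 1.11.5. The comparison was tested on simulated data. Members that reached a share of 10% with reads in a condition were named. The others were given by counts and ranges, or were named after their values were seen. The values of 1 member and 1 listed cofactor are not reported here. The members, the lists and the comparisons were chosen with earlier results of these data known. Alternatives covered detection thresholds, depth, pseudocount, filters, scaling, cell filters and clustering.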

Additional observations from a re-analysis of the deposited data

How the results depend on the processing

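No paired analysis was possible because each condition was 1 sample, and for the same reason no replicate could be left out. Of 186 recomputed log2 ratios of single *HOX* genes, 4 moved across 2-fold, and 0 of those called past 2-fold reversed in sign. Among 203 recomputed counts, shares, medians and levels, 55 moved, and a reversal was not scored for these. The *HOXC* and *HOXD* shares were compared only as deposited and at equal depth, where the order of post-transplant cells and cyAC turned. Values are given in the order cyiPSC, pre-transplant, post-transplant, cyAC and cyFT. The share of cells with a *HOX* read was 6.04%, 61.3%, 65%, 23.8% and 27.8% when a gene was found from 2 reads, 0.680%, 12.8%, 37.8%, 5.94% and 6.25% from 10 reads, and 4.96%, 48.0%, 51.6%, 23.4% and 29.5% at equal depth. Members in at least 5% of cells numbered 1, 3, 0 and 0 in the last 4 conditions from 10 reads, and in cyFT 2 instead of 4 from 2 reads or at equal depth. At equal depth they also went from 6 to 4 before and from 6 to 5 after transplantation. The median highest paralog was 7 in cyiPSC and 10 in cyFT from 10 reads. The posterior share of *HOX* reads was 55.6% in cyiPSC, 57.2% in post-transplant cells, 77.7% in cyAC and 70.0% in cyFT without the cell with most reads of each gene. As a mean over cells it was 51.4% in pre-transplant cells, 58.3% in post-transplant cells, 66.2% in cyAC and 56.4% in cyFT. The order before and after transplantation thus turned, from 59.0% and 54.9% of summed reads. Without a filter on low values, 9 genes were higher in pre-transplant cells than in cyiPSC, 7 in post- than in pre-transplant cells, 7 higher and 1 lower in post-transplant cells than in cyAC, and 2 higher and 4 lower in cyFT than in cyAC. With 10 CPM and 10% of cells as the filter, the first 3 counts were 3, 1 and 2, since fewer genes were tested. The mean of per-cell CPM gave 1 gene higher in cyFT than in cyAC, *HOXA10* at a log2 ratio of 1.09. *HOXA11* fell short of 2-fold at 0.67 (pseudocount of 5 CPM) and 0.91 (without cells marked as doublets) between post- and pre-transplant cells and at 0.90 (pseudocount of 5 CPM) against cyAC; the cause was not tested.

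TMM scaling moved the share of higher genes among all calls from 30.1% to 56.9% between pre-transplant cells and cyiPSC, where the median log2 ratio went from -0.62 to 0.06, and from 72.9% to 59.0% between cyFT and cyAC, where it went from 0.18 to 0.00; no *HOX* call changed. TMM calls of the other gene lists were added after seeing the data.

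Across clusters of the matrix of 2 conditions, *HOX* shares of 13.2 to 79.3% and levels of 1.23 to 139 CPM became 73.1% at most and 2.23 to 106 CPM at resolution 0.1, 6.12 to 88.3% and 151 CPM at most at resolution 1, 83.3% at most with *HOX* genes kept, and 2.13% at least and 118 CPM at most with 5000 variable features. In the matrix of 4 conditions, the highest level of 134 CPM became 106, 141 and 126 CPM at resolution 0.1, at resolution 1 and with *HOX* genes kept. With 5000 variable features, the lowest share and level of 23.8% and 8.66 CPM became 50.9% and 95.1 CPM.

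Leaving out the shallow cyiPSC cluster or the immune-led cyFT cluster, chosen after seeing the data, kept every count of calls. Scrublet marked 14 of 6027 cells in the first matrix, too few for it to have worked, and 19, 33, 2 and 2 cells in the second. Depth limits the rarer members: 1 read is worth 0.0846 CPM in cyAC and 0.0902 CPM in cyFT, and 0 of 320 cells with a read allows a share with reads of up to 0.938%, which does not limit the share expressing the gene.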
